A study of Mus musculus with 12 samples.

Results

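The enzymes that remove superoxide and H2O2 were followed in 10 genes: catalase (Cat), the superoxide dismutases Sod1, Sod2 and Sod3, and the peroxiredoxins Prdx1 to Prdx6. The genes were listed by name, all 10 were found among the 25514 genes to which transcript identifiers could be matched, and each was represented by its transcript with the highest total. RNA was sequenced in 12 libraries of conditionally immortalized mouse proximal tubule (PT) cells, 3 in each of 4 groups: TβRII flox/flox PT cells and TβRII-/- PT cells, untreated or given H2O2 in serum-free medium for 24 h. Tgfbr2, the gene of the TGF-β type II receptor, was floxed in the cells of origin, which also carried the Immorto-mouse's temperature-sensitive T antigen. The TβRII-/- line was made from the floxed line with Cre in culture, and each genotype is 1 line, so the deletion and anything else that differs between the lines cannot be told apart. The cells were grown at 33 °C and held for 5 days at 37 °C before the experiment. Treated cells also lacked serum, for which the methods describe a period of starvation before H2O2 was added, so H2O2 and serum withdrawal cannot be told apart. The labels give the H2O2 dose in mM (200), while the methods state it in μM.

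Superoxide dismutases turn superoxide, which leaks from mitochondria and is made by NADPH oxidases, into H2O2. Catalase splits H2O2 in the peroxisome, and peroxiredoxins reduce it through reactive cysteines that are recharged by thioredoxin or, in the case of Prdx6, by glutathione. Proximal tubule cells are rich in mitochondria and peroxisomes, which are sources of both oxidants.

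The libraries held between 15870155 and 20857618 gene counts, and genotype and then treatment separated them along the first principal components (81.1% and 8.82% of the variance). Tgfbr2 had 7032 to 8791 raw counts in untreated TβRII flox/flox cells and 6485 to 6895 in untreated TβRII-/- cells. With H2O2 it had 11960 to 13474 and 7156 to 9299 raw counts, so the targeted gene was lower in TβRII-/- cells in both conditions but was still counted. Of 15 proximal tubule markers, 8 reached a mean of 10 normalized counts in TβRII flox/flox cells and 6 in TβRII-/- cells, and Slc22a6 and Slc13a3 were at 0 in every library. Values below are TMM-normalized counts for a library of 17351835 counts. A gene is called changed at a Benjamini-Hochberg adjusted p under 0.05, computed with the quasi-likelihood test of edgeR over the 12971 genes that passed its filter. The labels do not say that libraries of a group came from separate cultures, so the p-values measure the spread between these libraries.

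Promoter sequences (RefSeq, GRCm38.p6, 250 bases before to 50 after a start site) covered 8 of the 10 genes, all but Sod3 and Prdx6. The Prdx4 window (chrX:155338411-155338710, minus strand) lies inside the span given for that gene below and not at its outer end. The core of the antioxidant response element, which Nrf2 binds, was searched as TGACNNNGC on both strands and occurred in 12.4% of 32851 mouse promoters. The Prdx1 and Sod1 windows each held 1 match. They are shown with the match in capitals, and Cat is shown because it had the largest difference between genotypes among the well-counted genes and no match.
Prdx1 (chr4:116685349-116685648, plus strand): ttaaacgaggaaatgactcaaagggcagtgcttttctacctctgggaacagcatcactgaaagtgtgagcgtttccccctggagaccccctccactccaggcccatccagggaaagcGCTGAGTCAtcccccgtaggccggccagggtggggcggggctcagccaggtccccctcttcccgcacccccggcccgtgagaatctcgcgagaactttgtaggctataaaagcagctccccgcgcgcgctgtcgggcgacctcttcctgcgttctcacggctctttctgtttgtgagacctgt
Sod1 (chr16:90220512-90220811, plus strand): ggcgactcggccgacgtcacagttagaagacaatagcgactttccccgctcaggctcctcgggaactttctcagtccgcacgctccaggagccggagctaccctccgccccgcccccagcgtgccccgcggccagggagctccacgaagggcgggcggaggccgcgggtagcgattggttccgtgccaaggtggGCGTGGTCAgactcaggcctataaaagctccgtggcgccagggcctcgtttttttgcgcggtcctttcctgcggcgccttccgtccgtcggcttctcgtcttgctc
Cat (chr2:103485104-103485403, minus strand): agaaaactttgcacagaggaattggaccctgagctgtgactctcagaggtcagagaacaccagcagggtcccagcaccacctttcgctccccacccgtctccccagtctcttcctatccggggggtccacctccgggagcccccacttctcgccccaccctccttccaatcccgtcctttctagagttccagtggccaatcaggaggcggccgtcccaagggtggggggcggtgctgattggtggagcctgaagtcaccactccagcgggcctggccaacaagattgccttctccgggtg
The match begins 133 bases upstream of the start in Prdx1 and 56 bases upstream in Sod1, and in both it reads as the searched core on the strand opposite to the one printed. The Cat window held 4 CCAAT boxes (CCAAT on either strand), a motif found in 37.4% of promoters. The FoxO motif (TGTTTAC, 3.65% of promoters) and the NF-kB motif (0.155% of promoters) were found in none of the 8 windows. A match describes letters in these 300 bases and does not show that a factor was bound.

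To determine how TβRII deletion related to these enzymes at baseline, untreated TβRII-/- cells were compared with untreated TβRII flox/flox cells (n = 3 libraries each). Cat, Prdx1, Prdx3 and Prdx6 were higher in TβRII-/- cells, Sod1 and Prdx4 were lower, and Sod2, Prdx2 and Prdx5 did not pass the test. Sod3 is left out of the counts, since it passed the expression filter only through the libraries of TβRII-/- cells, and is described on its own. Of the other 9 genes, 4 were called higher and 2 lower, where 33.3% of all genes tested were called higher and 31.4% lower. Their log2 fold changes lay between -0.37 and 0.54, with a median of 0.10 against 0.01 over all genes. None of the 9 reached a fold change of 1.5, as 28.0% of all genes did. The libraries of the genotypes did not overlap for the 6 genes called, and 33.7% of all genes were separated upward and 31.6% downward. In bulk RNA, fewer cells expressing a gene and less RNA per cell cannot be told apart.

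**Figure D1:**
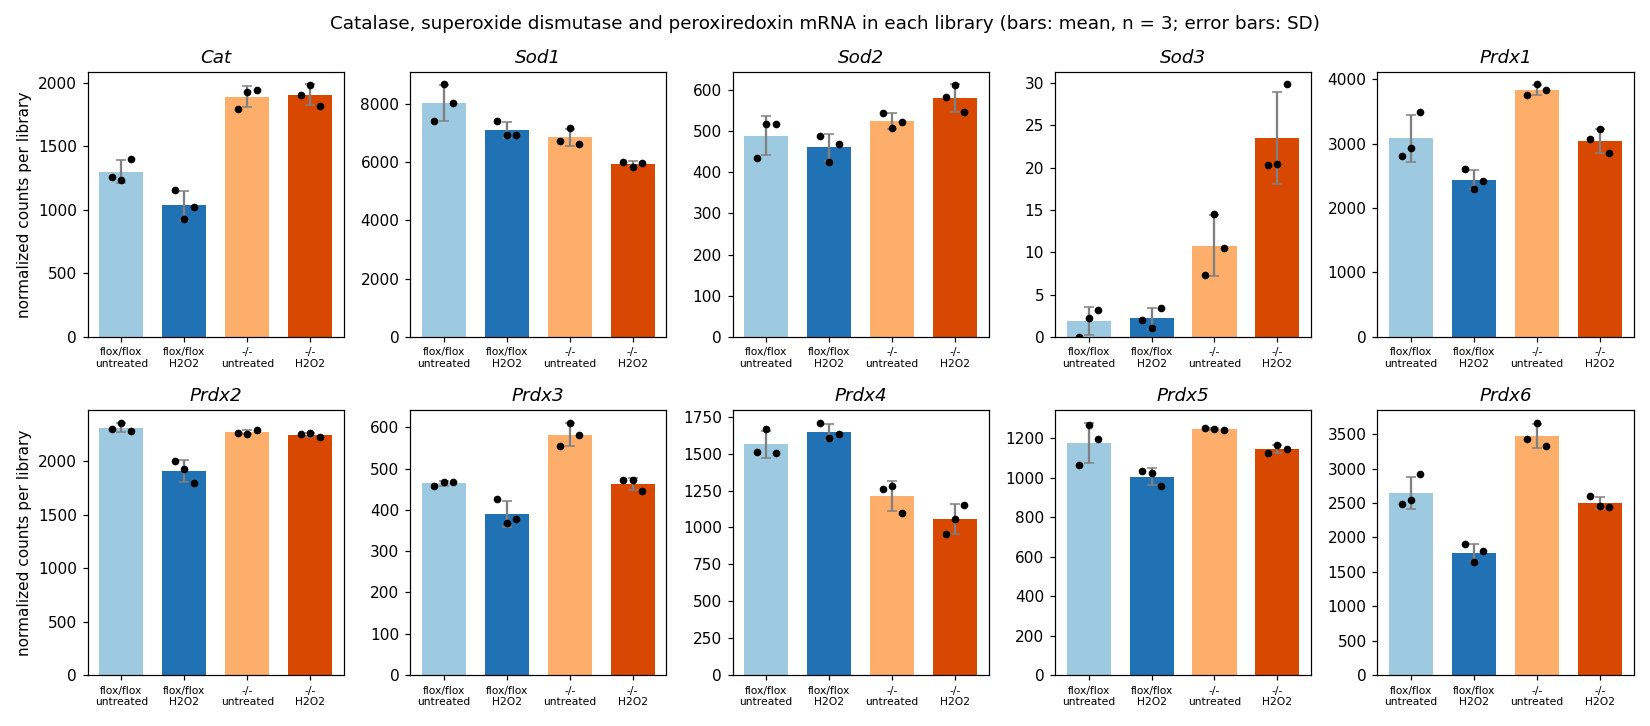
Normalized counts (y axis, from 0) of the 10 genes in each library. Each panel is 1 gene, dots are libraries, and bars with error bars are the mean and SD of the 3 libraries of a group. For Cat the dots of both groups of TβRII-/- cells lie between 1798 and 1987, above every dot of TβRII flox/flox cells, whose highest is 1403.

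Genotype was also the comparison in H2O2-treated cells. There Cat, Sod2, Prdx1, Prdx2, Prdx3, Prdx5 and Prdx6 were higher in TβRII-/- cells than in TβRII flox/flox cells, and Sod1 and Prdx4 were lower. Of the 9 genes other than Sod3, 7 were thus called higher and 2 lower, where 35.1% of all genes tested were called higher and 31.3% lower. Cat and Prdx4 also reached a fold change of 1.5, as 30.7% of all genes did. The libraries of the genotypes did not overlap for any of the 9, and 37.3% of all genes were separated upward and 33.7% downward. The median log2 fold change was 0.25, against 0.02 over all genes tested.

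The summed count of the 15 proximal tubule markers, which is weighted to the highest one (Lrp2 in every group), moved with genotype. It was 23084 to 28956 in untreated TβRII flox/flox cells and 16507 to 17614 in untreated TβRII-/- cells, and 31676 to 34418 against 16937 to 18203 with H2O2. The sum was thus also higher with H2O2 in TβRII flox/flox cells, while treated and untreated libraries of TβRII-/- cells overlapped. The 7 endothelial markers summed to 259 to 311 in untreated TβRII flox/flox cells and 865 to 985 in untreated TβRII-/- cells, with Kdr the highest and Pecam1 and Cdh5 at 0 in the latter. With H2O2 these sums were 205 to 228 and 403 to 474, with Ptprb the highest. The 8 fibroblast markers were lower in TβRII-/- cells, at 16.5 to 29.3 against 55.9 to 69.4 untreated and 40.6 to 50.7 against 76.4 to 96.3 with H2O2. The part of these shifts in the results was not tested. The 8 erythroid markers summed to at most 26.8 in any library, with the globin genes Hba-a2, Hbb-bs and Hbb-bt at 0 in all 12.

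Catalase (Cat, chr2:103453904-103485153) breaks down H2O2 without a reducing partner and is carried into peroxisomes by Pex5. Its normalized counts were 1261, 1239 and 1403 in untreated TβRII flox/flox cells and 1798, 1931 and 1946 in untreated TβRII-/- cells. With H2O2 they were 1155, 929 and 1025 in TβRII flox/flox cells and 1908, 1987 and 1822 in TβRII-/- cells. The genotypes were fully separated in both conditions, and within TβRII-/- cells the treated and untreated libraries overlapped. Cat was 1.45-fold higher at baseline (log2 0.54 ± 0.07 SE, adjusted p = 3.41e-08) and 1.84-fold higher with H2O2 (log2 0.88 ± 0.07, adjusted p = 7.98e-13). It fell with H2O2 in TβRII flox/flox cells, by 0.33 on the log2 scale (SE 0.07, adjusted p = 0.0004). In TβRII-/- cells its log2 fold change was 0.01 ± 0.07 (95% interval -0.13 to 0.15, adjusted p = 0.913). Both Cat transcripts with at least 1% of the counts differed alike between untreated genotypes, with log2 ratios of 0.54 and 0.64. Cat lies among 24 neighbouring tested genes, 12 on each side, whose median log2 fold change between untreated genotypes was 0.21. Of these neighbours 17 were higher in TβRII-/- cells, and the median over 962 tested genes of chromosome 2 was 0.30. The part of this regional shift in the difference of Cat was not tested.

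Sod1 (chr16:90220762-90226333), the cytosolic copper and zinc enzyme, was lower in TβRII-/- cells and fell with H2O2 in both genotypes. It had 7428, 8674 and 8029 normalized counts in untreated TβRII flox/flox cells and 6742, 7184 and 6643 in untreated TβRII-/- cells. With H2O2 these were 7413, 6954 and 6954 in TβRII flox/flox cells and 6020.3, 5850.5 and 5978 in TβRII-/- cells. The treated TβRII-/- cells lay below every other library. Between genotypes the log2 fold change was -0.23 ± 0.06 at baseline (adjusted p = 0.00182) and -0.26 ± 0.06 with H2O2 (adjusted p = 0.000599). With H2O2 it fell by 0.18 in TβRII flox/flox cells (adjusted p = 0.0218) and by 0.20 in TβRII-/- cells (adjusted p = 0.0096), both on the log2 scale. In TβRII flox/flox cells the call was lost without replicate 2 of the untreated libraries (adjusted p = 0.179), without replicate 2 or 3 of the treated ones (0.0857 and 0.102), and when only these 2 groups were fitted (0.0663). In TβRII-/- cells it was lost without replicate 2 of the untreated libraries (0.0659). The 24 neighbours of Sod1 had a median log2 fold change of -0.39 between untreated genotypes, and 21 of them were lower in TβRII-/- cells. The part of this regional shift in the difference of Sod1 was not tested. In RefSeq on GRCm38.p6 no gene overlaps Sod1 and Scaf4 lies 2617 bases away. In the later GENCODE M39 annotation, which was not the one counted, a Sod1 transcript shares 4098 bases with Scaf4. The transcript that represented Sod1 is annotated as a retained intron, and it and the coding transcript both had a log2 ratio of -0.23 between untreated genotypes and of -0.18 and -0.21 for H2O2 in TβRII flox/flox cells.

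Sod2 (chr17:13007839-13018119), the manganese enzyme of the mitochondrial matrix, did not pass the test at baseline but was higher in TβRII-/- cells with H2O2. Its normalized counts were 434, 516 and 516 in untreated TβRII flox/flox cells and 544, 507 and 523 in untreated TβRII-/- cells, which overlapped. With H2O2 they were 489, 426 and 468 in TβRII flox/flox cells and 583, 612 and 546 in TβRII-/- cells, with no overlap. The log2 fold change between genotypes was 0.10 ± 0.08 at baseline (adjusted p = 0.27) and 0.34 ± 0.08 with H2O2 (adjusted p = 0.000427). The H2O2 effect passed the test in neither genotype (log2 -0.09 ± 0.08, adjusted p = 0.428, and 0.15 ± 0.08, adjusted p = 0.13), nor did the difference of these effects (log2 0.23 ± 0.11, adjusted p = 0.203). The 7 Sod2 transcripts with at least 1% of the counts had log2 ratios of -0.14 to 0.57 between treated genotypes. The negative value came from a transcript with 4.73% of the counts. Its raw counts overlapped, at 77, 81 and 46 in TβRII flox/flox cells and 57, 101 and 63 in TβRII-/- cells.

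Sod3 (chr5:52363804-52369738), the secreted enzyme, was close to the detection limit. Raw counts were 0, 2 and 3 in untreated TβRII flox/flox cells, 7, 15 and 11 in untreated TβRII-/- cells, 2, 1 and 3 in treated TβRII flox/flox cells and 22, 26 and 30 in treated TβRII-/- cells. It passed the expression filter only through the libraries of TβRII-/- cells, since 5 of 12 libraries had at least 10 counts. The filter thus favoured higher values in those libraries, so the ratios and p-values of Sod3 only describe its counts. The summed counts were 33 against 5 at baseline, a depth-adjusted ratio of 6.05 (exact 95% interval 2.35 to 19.8, which covers counting error only). With H2O2 they were 78 against 6, a ratio of 10.9 (4.80 to 30.7). Within TβRII-/- cells the ratio of treated to untreated was 2.13 (1.40 to 3.31; log2 1.09 ± 0.36, adjusted p = 0.0171). That call was lost with DESeq2 (adjusted p = 0.055), with counts summed over transcripts (0.108), without replicate 1 or 3 of the untreated libraries (0.0845 and 0.0504) and without replicate 3 of the treated ones (0.0966). Within TβRII flox/flox cells the ratio was 1.18 (0.300 to 4.89), and no change was detectable at this depth. Of the 24 neighbours of Sod3, 23 were higher in untreated TβRII-/- cells, with a median of 0.49, and the part of this in the result was not tested.

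The cytosolic peroxiredoxins are Prdx1 and Prdx2, which are recharged by thioredoxin and rescued from overoxidation by sulfiredoxin (Srxn1). Prdx1 (chr4:116685599-116700000) had 2814, 2939 and 3494 normalized counts in untreated TβRII flox/flox cells and 3762, 3919 and 3834 in untreated TβRII-/- cells. With H2O2 it had 2601, 2299 and 2423 in TβRII flox/flox cells and 3069, 3224 and 2851 in TβRII-/- cells. Untreated TβRII-/- cells were highest and treated TβRII flox/flox cells lowest, and treated TβRII-/- cells overlapped with untreated TβRII flox/flox cells. It was higher in TβRII-/- cells by a log2 fold change of 0.32 ± 0.07 at baseline (adjusted p = 0.000166) and 0.32 ± 0.07 with H2O2 (adjusted p = 0.000149). It fell with H2O2 by 0.34 in TβRII flox/flox cells (adjusted p = 0.000243) and by 0.33 in TβRII-/- cells (adjusted p = 0.000247), both on the log2 scale. The difference between these effects was 0.00 ± 0.10 (95% interval -0.19 to 0.20). Prdx1 overlaps AV051173, and it, like Prdx2, Prdx6 and Sod1, has processed pseudogenes of similar sequence with which reads may be shared.

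For Prdx2 (chr8:84969622-84974811), H2O2 was followed by a fall in 1 genotype. Its normalized counts were 2308, 2362 and 2282 in untreated TβRII flox/flox cells and 2268, 2259 and 2296 in untreated TβRII-/- cells. With H2O2 they were 2000, 1929 and 1799 in TβRII flox/flox cells and 2258, 2263 and 2229.5 in TβRII-/- cells. Only the treated TβRII flox/flox cells stood apart, below the other 9 libraries. Prdx2 fell there by 0.28 on the log2 scale (SE 0.06, adjusted p = 0.000186), while in TβRII-/- cells its log2 fold change was -0.02 ± 0.06 (95% interval -0.13 to 0.10, adjusted p = 0.852). Between genotypes the log2 fold change was -0.03 ± 0.06 at baseline (adjusted p = 0.688) and 0.24 ± 0.06 with H2O2 (adjusted p = 0.000446). Prdx2 lies 24 bases from Rnaseh2a in RefSeq on GRCm38.p6, while in GENCODE M39 it shares 484 bases with an Rnaseh2a transcript. The strand setting of the counting is not given in the sources used here.

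Prdx3 (chr19:60864066-60874538) serves the mitochondrial matrix beside Sod2. It had 458, 467 and 468 normalized counts in untreated TβRII flox/flox cells and 554, 611 and 580.1 in untreated TβRII-/- cells. With H2O2 it had 426, 368 and 377 in TβRII flox/flox cells and 472, 472 and 446 in TβRII-/- cells. Untreated TβRII-/- cells were highest and treated TβRII flox/flox cells lowest, while untreated TβRII flox/flox cells and treated TβRII-/- cells overlapped. The log2 fold change between genotypes was 0.33 ± 0.07 at baseline (adjusted p = 0.00033) and 0.25 ± 0.08 with H2O2 (adjusted p = 0.00574). Prdx3 fell with H2O2 by 0.25 in TβRII flox/flox cells (adjusted p = 0.0113) and by 0.33 in TβRII-/- cells (adjusted p = 0.000643), both on the log2 scale. Without replicate 2 or 3 of treated TβRII flox/flox cells, the adjusted p was 0.0763 and 0.0608 between treated genotypes and 0.0756 and 0.0573 for H2O2 in TβRII flox/flox cells, and with summed transcripts it was 0.0521 and 0.0527. The 15 neighbours tested had a median of 0.45 between untreated genotypes, above the value of Prdx3 itself, and the part of this in the result was not tested.

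Prdx4 (chrX:155323918-155342272), the peroxiredoxin of the endoplasmic reticulum, was the only one of the 6 peroxiredoxins called lower in TβRII-/- cells. Its normalized counts were 1511, 1669 and 1507 in untreated TβRII flox/flox cells and 1261, 1279 and 1096 in untreated TβRII-/- cells. With H2O2 they were 1709.5, 1604 and 1632 in TβRII flox/flox cells and 954, 1058 and 1155 in TβRII-/- cells. The genotypes were separated in both conditions, and treated and untreated libraries overlapped within each genotype. Between genotypes the log2 fold change was -0.37 ± 0.07 at baseline (adjusted p = 3.05e-05) and -0.64 ± 0.07 with H2O2 (adjusted p = 1.16e-09). The 24 neighbours had medians of the opposite sign, 0.25 and 0.18. No gene overlaps Prdx4 in RefSeq on GRCm38.p6, while in GENCODE M39 it shares 360 bases with an Acot9 transcript. All 3 Prdx4 transcripts with at least 1% of the counts were lower, with log2 ratios of -0.44 to -0.34 at baseline and -0.66 to -0.61 with H2O2. Prdx4 did not pass the test for H2O2 in TβRII flox/flox cells (log2 0.08 ± 0.07, adjusted p = 0.383) and fell by 0.20 in TβRII-/- cells (adjusted p = 0.0247). The latter call was lost without replicate 1 or 2 of the untreated libraries (adjusted p = 0.0923 and 0.127), without replicate 1 or 2 of the treated ones (0.196 and 0.0564) and with summed transcripts (0.0659).

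Prdx5 (chr19:6906697-6910106), found in mitochondria, peroxisomes and cytosol, differed between genotypes in treated cells. It had 1067, 1269 and 1194 normalized counts in untreated TβRII flox/flox cells and 1249.7, 1249 and 1241 in untreated TβRII-/- cells, which overlapped. With H2O2 it had 1034, 1025 and 959 in TβRII flox/flox cells and 1126, 1165 and 1144 in TβRII-/- cells. Treated TβRII flox/flox cells were the lowest group. The log2 fold change between genotypes was 0.08 ± 0.06 at baseline (adjusted p = 0.249) and 0.19 ± 0.06 with H2O2 (adjusted p = 0.0114), and the latter call was lost without replicate 3 of treated TβRII flox/flox cells (0.156). Prdx5 fell with H2O2 by 0.22 on the log2 scale in TβRII flox/flox cells (adjusted p = 0.00576). That call was lost without replicate 2 of the untreated libraries (0.0649) or replicate 3 of the treated ones (0.0513). In TβRII-/- cells the log2 fold change of -0.12 ± 0.06 did not pass (adjusted p = 0.124) although the libraries did not overlap, and it passed when only these 2 groups were fitted (0.0371). Prdx5 overlaps Trmt112 on the chromosome, and reads from the overlap may have been counted for either.

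Prdx6 (chr1:161240112-161251210), a cytosolic peroxiredoxin that also acts on phospholipids, had the largest fall with H2O2 of the 10 genes. Its normalized counts were 2492, 2540.5 and 2914 in untreated TβRII flox/flox cells and 3426, 3666 and 3327 in untreated TβRII-/- cells. With H2O2 they were 1897, 1642 and 1797 in TβRII flox/flox cells and 2603, 2461 and 2442 in TβRII-/- cells. The order ran from untreated TβRII-/- cells down to treated TβRII flox/flox cells, with untreated TβRII flox/flox cells and treated TβRII-/- cells overlapping in between. Prdx6 fell with H2O2 by 0.57 in TβRII flox/flox cells (SE 0.07, adjusted p = 3.02e-08) and by 0.47 in TβRII-/- cells (SE 0.06, adjusted p = 6.53e-07), both on the log2 scale. In TβRII flox/flox cells only 3.83% of the genes tested had as low a fold change, and in TβRII-/- cells 6.45%. It was higher in TβRII-/- cells by 0.39 ± 0.06 at baseline (adjusted p = 4.00e-06) and by 0.49 ± 0.07 with H2O2 (adjusted p = 9.61e-08), while its 24 neighbours had medians of -0.03 and -0.07. The 9 Prdx6 transcripts with at least 1% of the counts all fell, with log2 ratios of -0.57 to -0.39 in TβRII flox/flox cells and -0.56 to -0.19 in TβRII-/- cells. Prdx6b, whose transcript is 91.6% identical, had at most 1 count in a library.

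Considering H2O2 across the 9 genes other than Sod3, Cat, Sod1, Prdx1, Prdx2, Prdx3, Prdx5 and Prdx6 fell in TβRII flox/flox cells and none was called higher. That is 7 of 9, where 20.5% of all genes tested fell and 21.0% rose. The median log2 fold change was -0.25, against 0.01 over all genes, and none reached a fold change of 1.5, as 8.24% of all genes did. The treated and untreated libraries did not overlap for these 7 genes, where 23.3% of all genes were separated downward and 24.1% upward. In TβRII-/- cells, Sod1, Prdx1, Prdx3, Prdx4 and Prdx6 fell, 5 of 9, where 19.1% of all genes tested fell and 20.5% rose. There the median was -0.20, against 0.02 over all genes, and none of the 9 reached a fold change of 1.5, as 8.33% of all genes did. In TβRII-/- cells the libraries were separated for 1 gene upward (Sod2) and 5 downward (Sod1, Prdx1, Prdx3, Prdx5, Prdx6), as were 27.3% and 24.7% of all genes. The count of calls in TβRII flox/flox cells was 4 without replicate 3 of the treated libraries.

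**Figure D2:**
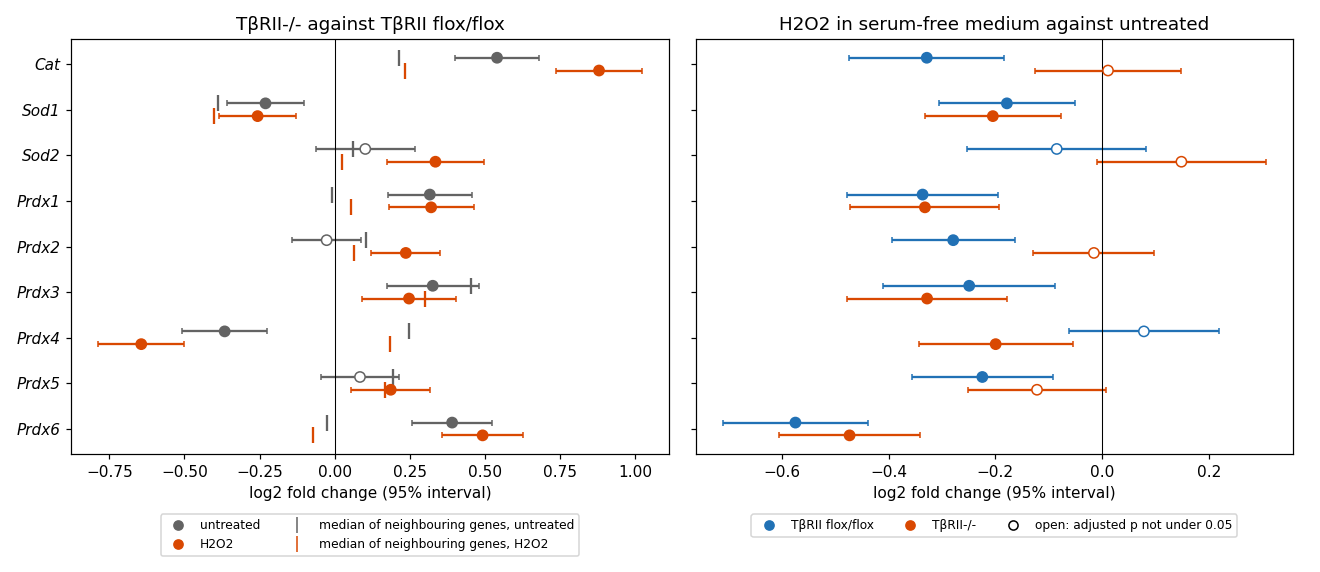
Log2 fold changes (x axis) with 95% intervals for 9 genes, leaving out Sod3 with its few counts. The left panel compares genotypes, untreated (grey) and with H2O2 (orange), with ticks at the median of the neighbouring genes. The right panel compares H2O2 with no treatment in TβRII flox/flox cells (blue) and TβRII-/- cells (orange), and open circles did not pass the test. Prdx6 lies farthest left in the right panel, at -0.57 and -0.47, and Cat and Prdx2 are near 0 only in TβRII-/- cells.

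The change with H2O2 in serum-free medium was then compared between genotypes directly, as an interaction. Cat and Prdx2 passed this test, 2 of the 9 genes other than Sod3, both with the higher value in TβRII-/- cells, where 3.90% of all genes tested were called in that direction and 6.28% in the other. The difference of the log2 fold changes was 0.34 ± 0.10 for Cat (adjusted p = 0.0225) and 0.26 ± 0.08 for Prdx2 (adjusted p = 0.0293). Neither reached a fold change of 1.5, as 2.36% of all genes did. Prdx4 had a difference of -0.28 ± 0.10 (adjusted p = 0.0679), and it passed without untreated TβRII flox/flox cells replicate 2 (0.0275) or without replicate 3 of either group of TβRII-/- cells (0.0253 untreated, 0.0317 treated). For Sod1, Prdx1, Prdx3, Prdx5 and Prdx6 the difference lay between -0.08 and 0.10, with adjusted p between 0.541 and 0.992. For Sod3 it was 0.87 ± 1.08 (adjusted p = 0.685). Cat passed in 12 of 19 alternative settings and Prdx2 in 11 of 19.

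**Figure D3:**
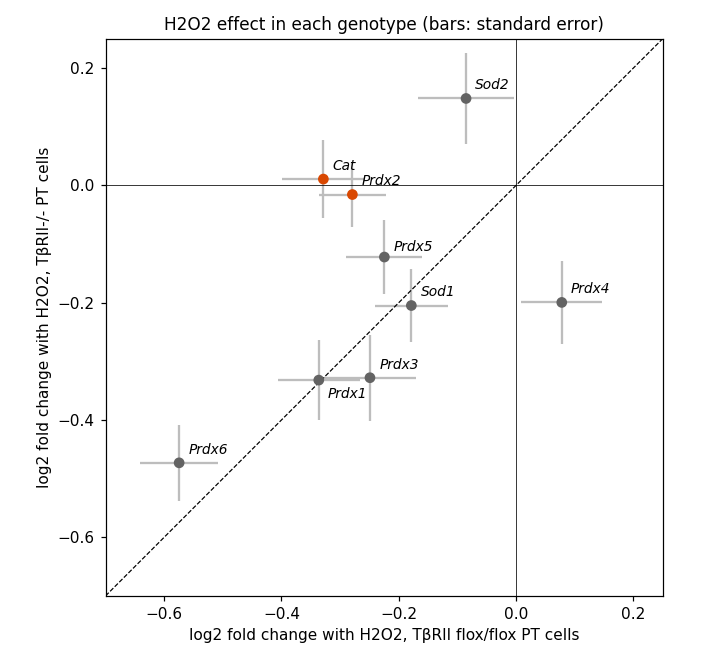
Log2 fold change with H2O2 in TβRII flox/flox cells (x axis) against that in TβRII-/- cells (y axis) for 9 genes, with standard errors as bars and equal effects on the dashed line. Orange points passed the interaction test. Cat and Prdx2 lie above the line, at -0.33 and -0.28 on the x axis and 0.01 and -0.02 on the y axis, while Prdx1 lies on it.

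The genes that recharge and supply these enzymes were taken from lists. Of 20 genes listed as recycling or reducing partners of peroxiredoxins, 12 were higher and 3 lower in untreated TβRII-/- cells. Of all genes tested, 33.3% were called higher and 31.4% lower. The median log2 fold change of the 20 was 0.33 against 0.01 over all genes. Not every gene listed reduces a peroxiredoxin, so these counts do not measure reducing capacity. Srxn1, which repairs overoxidized peroxiredoxins, had a mean of 772 normalized counts in untreated TβRII flox/flox cells and 3548 in untreated TβRII-/- cells (log2 2.20 ± 0.06, adjusted p = 7.64e-25). Txnrd1, the cytosolic thioredoxin reductase, rose from 4791 to 11681 (log2 1.29 ± 0.06), Gsr, glutathione reductase, from 1798 to 4424 (1.30 ± 0.06), and Txn2, the mitochondrial thioredoxin that recharges Prdx3, from 1026 to 1779.7 (0.79 ± 0.06). Txnrd2, the mitochondrial thioredoxin reductase, had means of 88.6 and 121.6 (log2 0.45 ± 0.15, adjusted p = 0.00992), did not pass between treated genotypes (-0.11 ± 0.15, adjusted p = 0.526) and fell with H2O2 in TβRII-/- cells (-0.37 ± 0.15, adjusted p = 0.0424). Cytosolic Txn1 did not pass (log2 -0.14 ± 0.06, adjusted p = 0.0531). Txndc5, a thioredoxin-like protein of the endoplasmic reticulum, where Prdx4 resides, was lower (log2 -1.33 ± 0.06). With H2O2, 11 of the 20 fell and 4 rose in TβRII flox/flox cells, where 20.5% of all genes fell and 21.0% rose. In TβRII-/- cells 11 fell and 3 rose, where 19.1% of all genes fell and 20.5% rose. Txn1 fell by 0.56 and 0.54, Txnrd1 by 0.37 and 0.47, and Srxn1 by 0.51 and 0.88 on the log2 scale in TβRII flox/flox cells and TβRII-/- cells. In the interaction test 2 of the 20 passed, where 3.90% of all genes were called higher and 6.28% lower. Srxn1 had a difference of -0.38 ± 0.09 (adjusted p = 0.00501) and Gsr of 0.29 ± 0.08 (adjusted p = 0.0228), so Gsr had the sign of Cat and Prdx2 and Srxn1 the opposite one. This count was 1 without untreated TβRII flox/flox cells replicate 2, without replicate 1 of untreated or of treated TβRII-/- cells, and with summed transcripts.

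Among 13 tested genes of copper, zinc and manganese supply, 5 were higher and 6 lower in untreated TβRII-/- cells, beside 33.3% and 31.4% of all genes. The metallothioneins Mt1 (log2 2.05 ± 0.07) and Mt2 (2.84 ± 0.10) were higher. Slc39a8, a carrier of manganese and zinc, fell from 356 to 35.7 normalized counts (log2 -3.31 ± 0.15). Ccs, the copper chaperone of Sod1, passed in none of the comparisons (untreated genotypes: log2 0.06 ± 0.08, adjusted p = 0.542). With H2O2, 6 of these 13 genes rose and 2 fell in TβRII flox/flox cells (21.0% and 20.5% of all genes), and 2 rose and 2 fell in TβRII-/- cells (20.5% and 19.1%).

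Enzymes that make superoxide or H2O2 were tested for 18 of 34 listed genes, 7 of them higher and 6 lower in untreated TβRII-/- cells, near the 33.3% and 31.4% of all genes. Nox4, the NADPH oxidase of renal tubules, had means of 557 and 21.2 normalized counts (log2 -4.71 ± 0.14, adjusted p = 3.02e-24), and 609.9 and 15.6 with H2O2 (log2 -5.29 ± 0.14). Xdh, xanthine dehydrogenase, was higher (log2 1.60 ± 0.10) and so was Sqor, sulfide quinone oxidoreductase (2.99 ± 0.20). Ero1a, an oxidase that supplies H2O2 to Prdx4 in the endoplasmic reticulum, was lower at baseline (log2 -0.50 ± 0.07) and with H2O2 (-0.76 ± 0.07), as Prdx4 was. Ero1b, of the same list, did not pass at baseline (log2 0.15 ± 0.10, adjusted p = 0.163) or with H2O2 (0.10 ± 0.09, adjusted p = 0.347). A link of either gene to Prdx4 was not tested. With H2O2, 6 of the 18 rose and 3 fell in TβRII flox/flox cells (21.0% and 20.5% of all genes), and 6 rose and 4 fell in TβRII-/- cells (20.5% and 19.1%). Maoa, monoamine oxidase A, fell in both (log2 -0.86 ± 0.09 and -0.62 ± 0.08).

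For the peroxisome, 18 genes listed for its biogenesis and for catalase import were tested, not all of which build the organelle. Of these, 4 were higher and 5 lower in untreated TβRII-/- cells, smaller shares than the 33.3% and 31.4% of all genes. Pex5, the receptor that carries Cat into the organelle, was lower (log2 -0.36 ± 0.07 untreated and -0.28 ± 0.07 with H2O2), while Pex7 (0.83 ± 0.12) and Pex26 (0.63 ± 0.10) were higher at baseline. With H2O2, 2 of the 18 rose and 1 fell in TβRII flox/flox cells (21.0% and 20.5% of all genes), and 4 rose and 1 fell in TβRII-/- cells (20.5% and 19.1%). Of 19 transcription factors and coregulators, 6 were higher and 7 lower in untreated TβRII-/- cells, near the 33.3% and 31.4% of all genes. Nfe2l2, which encodes Nrf2, was higher (log2 1.11 ± 0.06), as was the coactivator Ppargc1a (2.30 ± 0.12), and Nfkb1 was lower (-0.93 ± 0.06). Nfe2l1, a relative of Nfe2l2, was lower in TβRII-/- cells untreated (log2 -0.55 ± 0.07) and treated (-0.69 ± 0.07). With H2O2 it rose in TβRII flox/flox cells (log2 0.31 ± 0.07), and in TβRII-/- cells its log2 fold change was 0.16 ± 0.07 (adjusted p = 0.051). With H2O2, 5 of the 19 rose and 5 fell in TβRII flox/flox cells (21.0% and 20.5% of all genes), and 6 rose and 3 fell in TβRII-/- cells (20.5% and 19.1%). Maff fell in both (log2 -0.59 ± 0.10 and -0.66 ± 0.09). The 10 transcription factor calls with H2O2 in TβRII flox/flox cells were 5 without untreated replicate 1 and 6 without treated replicate 2 or 3. The 5 peroxisome calls with H2O2 in TβRII-/- cells were 3 without any 1 of the untreated libraries or without treated replicate 2, 2 without treated replicate 3, and 3 with DESeq2. Prdx1 and Sod1, the genes whose promoters held the Nrf2 core shown above, differed between untreated genotypes in opposite directions. Whether Nrf2 had a part in the values of any of the 10 genes was not tested.

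**Figure D4:**
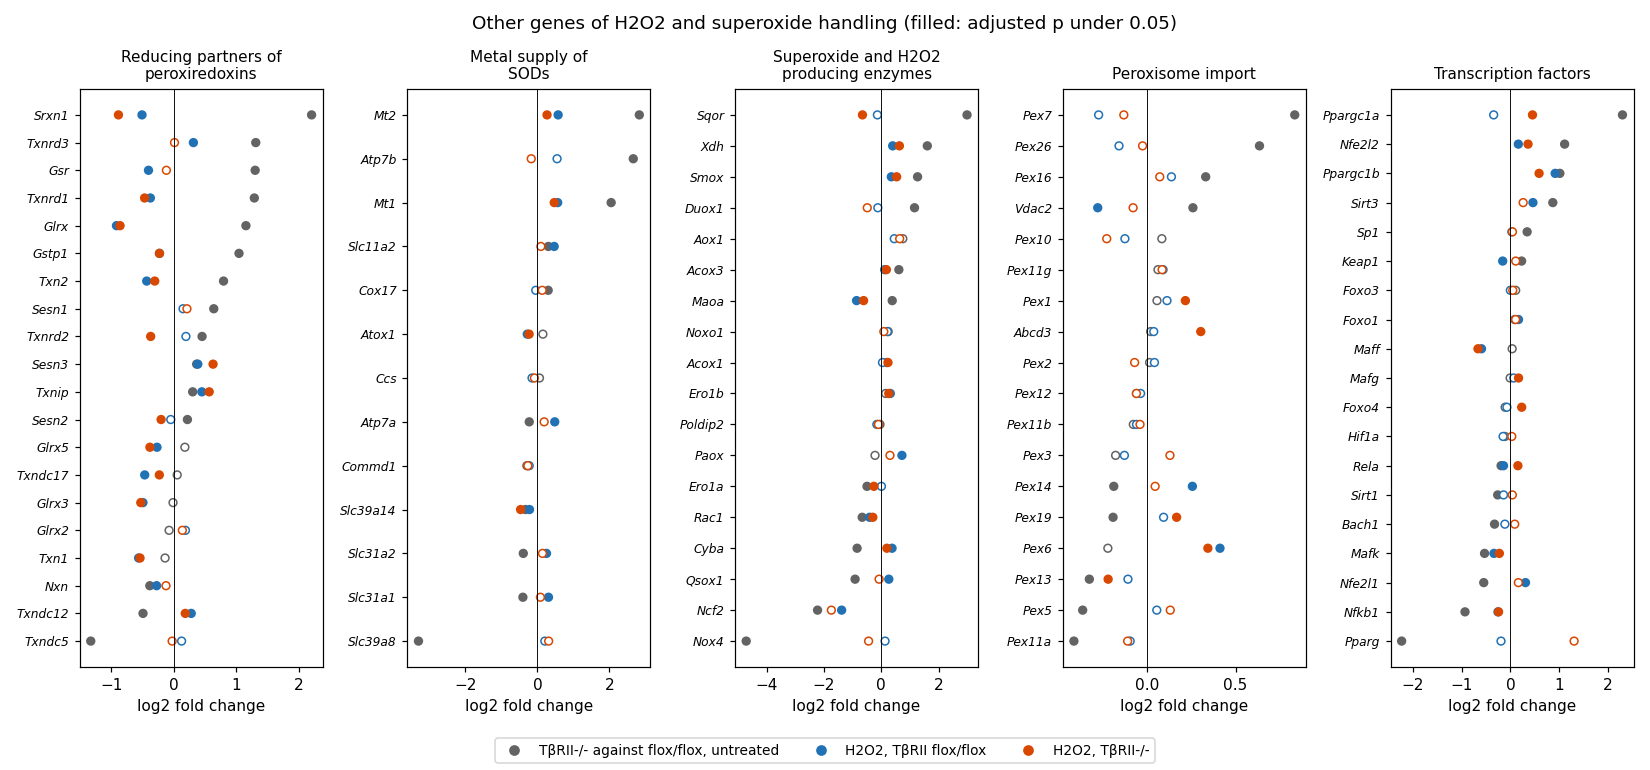
Log2 fold changes (x axis) of the tested genes of the 5 lists, ordered by their difference between untreated genotypes (grey), with the H2O2 effect in TβRII flox/flox cells (blue) and TβRII-/- cells (orange). Filled points passed the test. Srxn1 tops the list of recycling and reducing partners at 2.20, with H2O2 effects of -0.51 and -0.88, and Nox4 lies lowest among the producing enzymes at -4.71.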

How the data were processed

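RNA of 12 libraries was sequenced by the authors as stranded mRNA libraries. The reads were aligned with STAR to the GRCm38.p6 build (annotation GENCODE M23), and the authors deposited raw featureCounts counts per transcript without normalization. The study describes counts per gene, so the gene-level test fixed for these data was applied to 1 transcript per gene, the one with the highest total, named through GENCODE M39. Identifiers of 104820 of 106332 transcripts matched, and the others held 1.22% to 1.28% of a library's counts. Reads may be counted on several overlapping transcripts.

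Groups and replicate numbers came from the labels. Counts were filtered with filterByExpr on the 4 groups, normalized by TMM and fitted in 1 model of 12 libraries with edgeR 4.0.16 (glmQLFit, glmQLFTest) in R 4.3.3. Alternatives were DESeq2 1.42.0, its size factors, no filter, at least 10 counts in every library, summed transcripts, the replicate number as a block, only the groups compared, a fold change of 1.5, and each library left out. A coding transcript per gene was added after the data were seen. In simulated counts with 2-fold changes, edgeR recovered 195 of 200 genes for untreated genotypes (12752 genes tested, 9 unchanged genes called). It recovered 191 of 200 for H2O2 in TβRII flox/flox cells (12746 tested, 17 called) and 185 of 200 for the interaction (12742 tested, 12 called). Only 200 genes were changed in each simulation. The simulations therefore do not cover smaller changes, or comparisons in which as many genes differ as here.

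The 10 genes and the lists were chosen with earlier results of these data known. Text names all 10 genes, 8 fixed partners (Srxn1, Ccs, Txn1, Txn2, Txnrd1, Txnrd2, Ero1a, Pex5), and genes drawn from at most 4 per list and comparison with the largest change, an adjusted p under 0.05, a fold change of 1.5 and a mean of 10 counts. Ero1b is given beside Ero1a outside this rule. Neighbours are the 12 nearest tested genes on each side. Similar transcripts were searched with BLAST 2.17.0+, tables joined with Python 3.11.15. Replicates differed beyond sampling noise (chi-square per gene 3.58 to 12.0). The authors' strand setting is not given in the sources used here.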

Additional observations from a re-analysis of the deposited data

Results flagged for a closer look

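The change with H2O2 in serum-free medium differed between genotypes for Cat. The difference was 0.34 on the log2 scale in edgeR's interaction test (adjusted p = 0.0225). All 3 treated libraries of TβRII flox/flox cells lay below the untreated ones, and in TβRII-/- cells the groups overlapped. The call was lost without untreated TβRII flox/flox cells replicate 3 (adjusted p = 0.0854), replicate 1 of untreated TβRII-/- cells (0.0629), replicate 2 or 3 of treated TβRII flox/flox cells (0.131 and 0.0818) and replicate 1 or 2 of treated TβRII-/- cells (0.0522 and 0.0726), and with summed transcripts (0.125). The difference stayed above 0 in these fits, between 0.24 and 0.34.

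For Prdx2 the difference was 0.26 on the log2 scale (adjusted p = 0.0293), with treated TβRII flox/flox cells below the other 9 libraries. The call was lost without untreated TβRII flox/flox cells replicates 1 or 2 (adjusted p = 0.0553 and 0.0874), replicate 1 or 2 of untreated TβRII-/- cells (0.0598 and 0.0636), replicate 2 or 3 of treated TβRII flox/flox cells (0.0733 and 0.165) and replicate 1 or 2 of treated TβRII-/- cells (0.0718 and 0.0735). The difference in these fits lay between 0.19 and 0.26.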

How the results depend on the processing

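No called value of the 10 genes changed sign, and of the single-gene values recomputed, 700 kept their side of the threshold, 39 lost a call and 4 gained one. Counts here are over all 10 genes, with Sod3 included. Requiring a fold change of 1.5 gave 1 gene between untreated genotypes and 3 between treated ones, beside 28.0% and 30.7% of all genes. For H2O2 it gave 0 in TβRII flox/flox cells (7 by the adjusted p alone) and 1 in TβRII-/- cells, beside 8.24% and 8.33%. For the interaction it gave 0, beside 2.36%. Without Sod3 these counts were 0, 2, 0, 0 and 0. With counts summed over transcripts the interaction count was 1. Leaving out each library in turn gave 7 genes between untreated genotypes, 8 to 10 between treated ones, 4 to 7 for H2O2 in TβRII flox/flox cells, 4 to 5 in TβRII-/- cells and 0 to 3 for the interaction. The replicate numbers did not pair the libraries: same-numbered libraries correlated between -0.0832 and 0.0542 over 18 pairs, and 3 of 12 correlated best with their own number. With the replicate block, the 10 genes gave 7, 10, 7, 6 and 2 calls as without it, and over all genes 8287, 8523, 5235, 4981 and 1202 against 8387, 8617, 5392, 5135 and 1321. DESeq2 called 7, 10, 7, 5 and 2 of the 10 genes, and over all genes 8131, 8353, 5031, 4743 and 1314. Sod3 had no value with at least 10 counts in every library, and depth limits what can be said of it.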
